A study of Mus musculus with 30 samples.

Results

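Cholesterol synthesis, its transcriptional control and cholesterol export were followed through 29 genes in mouse blood and marrow cells and in cells converted from endothelium in culture. The 29 genes were chosen by symbol from a gene table of 23060 symbols, with earlier results of these data known. They comprise 18 enzymes of synthesis, 6 genes of control by the sterol regulatory element binding proteins (SREBP) and 5 genes of export and of the liver X receptors (LXR). All 29 were listed, and all 29 passed the minimum for testing, which was 1 FPKM or more in at least 2 libraries. FPKM are fragments scaled by transcript length and by mapped fragments, so levels may be compared between genes. The list holds no lipoprotein receptor, so uptake was read from a separate list given further on.

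Poly-A RNA was sequenced in 29 grouped libraries of 11 groups, and the study asked how far adult endothelium converted to blood-forming cells resembles native cells. Control groups were freshly isolated wild type cells: LKS-SLAM marrow cells, a gate for long-term stem cells (3 libraries), Gr1+Cd11b+ myeloid blood cells (2), B220+ B cells (3), CD4 T cells (2) and CD8 T cells (3). The matching rEC groups, annotated as derived, were freshly isolated from marrow or blood and had 3, 2, 3, 2 and 3 libraries. They are read here as descendants of converted endothelium after transplantation. Replicate 2 of the rEC LKS-SLAM cells and replicate 2 of the rEC B cells were titled as primary recipients of clone 47G1, and replicate 3 of both groups, CD4 replicate 2 and CD8 replicates 2 and 3 as secondary. The last group, called the FGRS culture, held 3 libraries of adherent derived cells of the KLS gate at day 28 of culture with HUVEC, human umbilical vein endothelial cells. The conversion factors behind the name FGRS are Fosb, Gfi1, Runx1 and Spi1, all regulators of transcription. The culture gate carried no SLAM markers, so gate and culture cannot be told apart in any comparison with that group. Against control groups the annotated origin differs as well, while rEC LKS-SLAM cells share the derived annotation. Age, sex and strain were not given in the labels, nor whether replicates came from separate animals, so p-values measure the spread between libraries, which may be technical.

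Cells make cholesterol from acetyl-CoA through mevalonate, isoprenoid diphosphates, squalene and lanosterol. When sterol in the endoplasmic reticulum falls, SCAP carries SREBP to the Golgi, where proteases free a factor that switches on nearly all enzymes of the pathway; INSIG proteins hold SCAP back when sterol is plentiful. When oxysterols accumulate, LXR (Nr1h2 and Nr1h3) switch on the exporters Abca1 and Abcg1, so synthesis and export are usually regulated in opposite directions. Dividing cells need sterol for new membrane, and macrophages need export because they take up lipid from other cells.

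Promoter stretches of 6 members are shown because synthesis genes and exporters moved apart in the culture. They come from RefSeq, build GRCm38.p6, which held a window for 23 of the 29 members. Fdps, Fdft1, Sqle, Abcg1, Npc1 and Stard4 had none. Each runs 5′ to 3′ on the strand of the gene and starts 200 bases before the transcription start, and the stretches of Hsd17b7 and Srebf2 are shortened so that they hold no coding-gene exon. Hmgcs1 lies at chr13:119690151-119690350 (+), Mvk at chr5:114444069-114444268 (+), Hsd17b7 at chr1:169969242-169969405 (-), Ebp at chrX:8193513-8193712 (-), Srebf2 at chr15:82147069-82147180 (+) and Abca1 at chr4:53159896-53160095 (-). Capitals mark the SREBP core TCACNCCA and the NF-Y box CCAAT on either strand (ATTGG on the other).
Hmgcs1: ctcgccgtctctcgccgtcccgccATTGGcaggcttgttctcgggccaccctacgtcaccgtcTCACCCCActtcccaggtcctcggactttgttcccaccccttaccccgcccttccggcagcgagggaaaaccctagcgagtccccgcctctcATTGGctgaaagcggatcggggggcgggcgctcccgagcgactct
Mvk: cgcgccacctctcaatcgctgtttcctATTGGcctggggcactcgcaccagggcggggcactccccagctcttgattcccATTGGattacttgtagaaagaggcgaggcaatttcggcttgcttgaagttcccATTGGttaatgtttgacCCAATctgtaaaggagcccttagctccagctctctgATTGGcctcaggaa
Hsd17b7: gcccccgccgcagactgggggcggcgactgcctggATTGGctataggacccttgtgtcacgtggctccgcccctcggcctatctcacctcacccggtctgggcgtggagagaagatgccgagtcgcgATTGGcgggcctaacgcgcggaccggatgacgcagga
Ebp: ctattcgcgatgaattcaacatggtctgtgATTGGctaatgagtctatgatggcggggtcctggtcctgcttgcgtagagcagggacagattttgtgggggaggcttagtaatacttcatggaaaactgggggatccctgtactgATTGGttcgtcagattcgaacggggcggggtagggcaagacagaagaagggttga
Srebf2: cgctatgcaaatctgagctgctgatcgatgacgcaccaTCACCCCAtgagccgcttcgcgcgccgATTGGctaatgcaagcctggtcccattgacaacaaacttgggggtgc
Abca1: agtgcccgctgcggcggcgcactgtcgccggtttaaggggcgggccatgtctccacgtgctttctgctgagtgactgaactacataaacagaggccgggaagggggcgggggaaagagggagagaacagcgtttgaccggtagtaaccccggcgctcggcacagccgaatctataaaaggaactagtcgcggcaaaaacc
In these letters Hmgcs1 and Srebf2 hold 1 SREBP core each beside 2 and 1 NF-Y boxes, Mvk holds 5 NF-Y boxes, Hsd17b7 and Ebp hold 2 each, and Abca1 holds neither motif.

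Over the 250 bases before the start, on both strands, CCAAT was found in 14 of 15 synthesis genes with a window, in 4 of 5 SREBP control genes and in 0 of 3 export and LXR genes. It was found in 33.8% of all 32851 windows and in 37.5% of genes. The Sp1 box GGGCGG was found in 14 of 15, 5 of 5 and 1 of 3, against 32.7% of all windows and 35.4% of genes. The core TCACNCCA was found in 2 of 15 synthesis genes (Hmgcs1 and Msmo1), 1 of 5 SREBP control genes (Srebf2) and 0 of 3. It was found in 3.67% of all windows and in 4.2% of genes. Genes can have several windows in the table, and a window is counted once per motif. TCACNCCA can overlap CCAAT, since the first ends and the second begins with CCA; in the stretches shown none do. The matches describe these windows only.

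In the FGRS culture all 18 synthesis enzymes were higher than in control LKS-SLAM cells, the exporters Abca1 and Abcg1 were lower, and of the 6 SREBP control genes Insig1 alone was called. The synthesis differences had a median of 1.83 and ranged from 1.14 to 3.70 on the log2(FPKM + 1) scale, on which all fitted differences are given; this scale understates changes of low genes. The median over all 14083 genes tested was -0.19. In this comparison 17.1% of all genes tested were called higher and 31.7% lower (limma with Benjamini-Hochberg adjustment, called at 0.05), against 20 and 3 of the 29 members. After quantile normalisation the members split 21 to 3, and all genes 2944 higher to 2864 lower in place of 2411 to 4459. Leaving out any 1 library, or refitting only these groups, ended no call of a member.

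**Figure D1:**
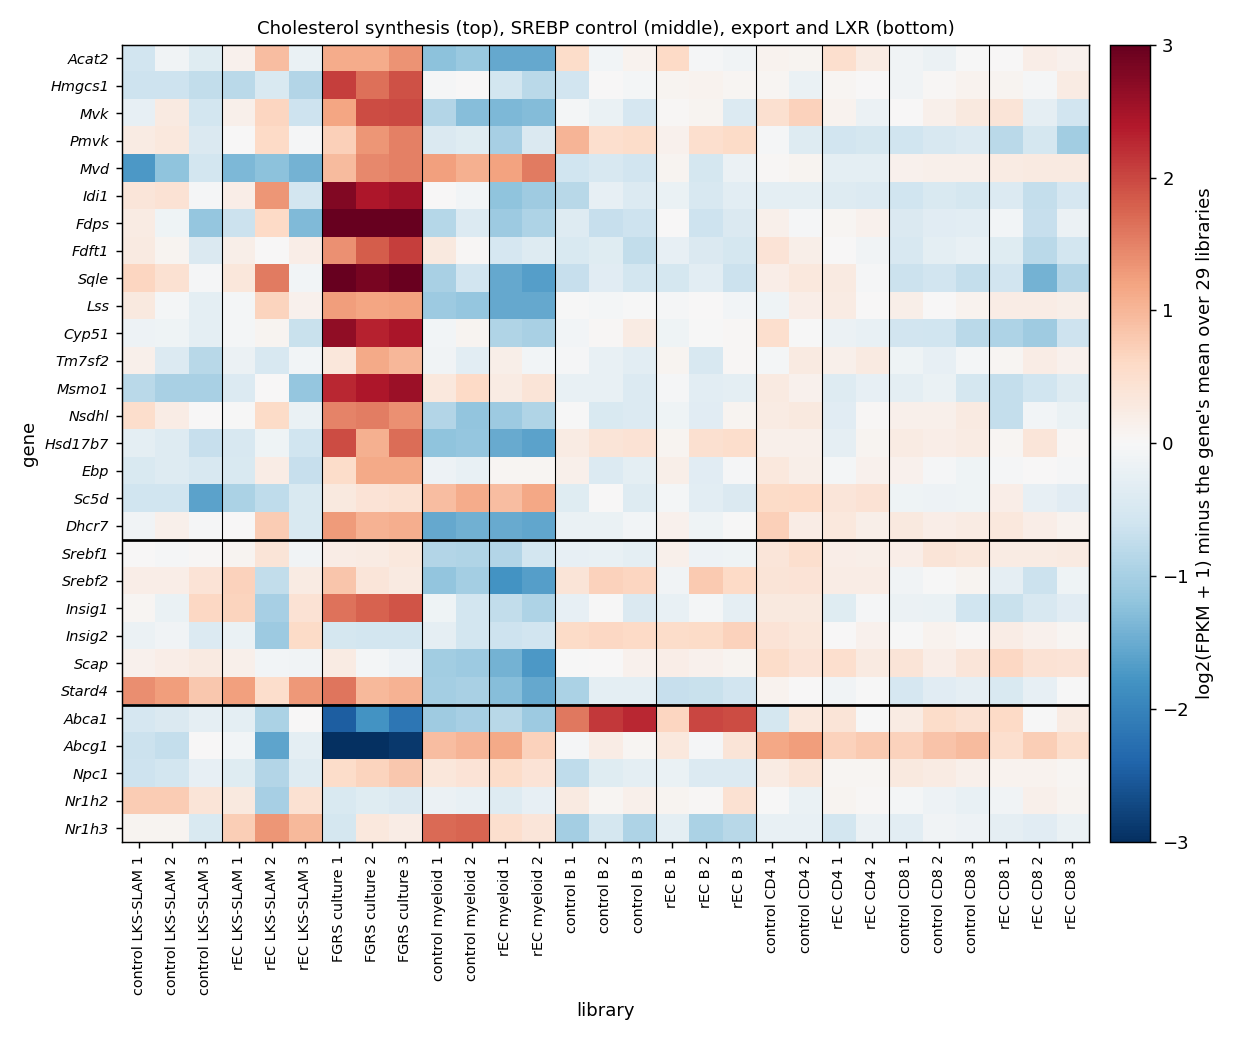
Each cell gives log2(FPKM + 1) of 1 of the 29 genes (rows) in 1 of 29 libraries (columns, grouped), minus that gene's mean over the libraries; red is above and blue below the mean. The 3 FGRS culture columns are red for the 18 synthesis genes and for Insig1 and blue for Abca1 and Abcg1.

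Enzymes of the mevalonate segment rose. Hmgcs1, which makes HMG-CoA, the precursor of mevalonate, was at 55.7, 41.2 and 49.6 FPKM in the 3 culture libraries. It was at 7.76, 7.83 and 7.05 in control LKS-SLAM cells, 6.67, 8.80 and 6.36 in rEC LKS-SLAM cells, and 12.2 and 12.7 in control myeloid cells. The highest of the 26 other libraries, a CD8 library, was at 14.9, so the culture did not overlap any other group, and the difference from control LKS-SLAM cells was 2.53 ± 0.16 (SE, adjusted p = 1.35e-10), a 6.47-fold ratio of means. Mvd, which decarboxylates mevalonate diphosphate, was at 25.8, 36.6 and 38.9 in the culture against 3.26, 5.04 and 8.55 in control LKS-SLAM cells (2.45 ± 0.21). Mvd was as high in control myeloid cells, at 31.8 and 28.3, and the culture overlapped them (0.14 ± 0.23, adjusted p = 0.648). Mvk, mevalonate kinase, was at 12.6, 22.3 and 22.6 in the culture and at 4.09, 6.28 and 3.08 in control LKS-SLAM cells (1.88 ± 0.30, adjusted p = 3.9e-05). Acat2, the cytosolic thiolase at the head of the pathway, was at 14.5, 14.6 and 17.4 against 3.83, 5.72 and 4.56 (1.54 ± 0.23). Pmvk, phosphomevalonate kinase, rose by 1.14 ± 0.24, and its culture range, 27.5 to 48.5, overlapped a control B library at 34.1.

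The enzymes from isopentenyl diphosphate to lanosterol included the largest difference. Fdps, farnesyl diphosphate synthase, which supplies sterol, dolichol and ubiquinone synthesis and protein prenylation (mm10 chr3:89093588-89101959, minus strand), was at 211, 313 and 279 FPKM in the culture. It was at 30.0, 22.9 and 10.5 in control LKS-SLAM cells and at 15.7, 38.6 and 9.42 in rEC LKS-SLAM cells. Among all other libraries the highest value was 38.6, so the lowest culture library stood far above the rest, and the means differed 12.7-fold. On its own strand Fdps shares 1124 exon bases with Gm43738, so its value may include reads of that gene, which was not tested. Idi1, which isomerises isopentenyl diphosphate, was at 70.6, 55.5 and 58.8 in the culture against 12.4, 13.1 and 9.17 in control LKS-SLAM cells (2.32 ± 0.28). Sqle, squalene epoxidase, the first oxygen-requiring step, was at 75.7, 59.5 and 64.8 against 12.1, 10.6 and 7.20 (2.64 ± 0.29, adjusted p = 5.59e-07). For both enzymes the highest library outside the culture was rEC LKS-SLAM replicate 2, at 25.2 for Idi1 and 24.1 for Sqle. Fdft1, squalene synthase, was at 17.9, 24.6 and 29.9 against 7.76, 6.70 and 4.38 (1.79 ± 0.20). Lss, lanosterol synthase, was at 9.42, 8.94 and 9.03 against 4.34, 3.23 and 2.55 (1.23 ± 0.17). Neither enzyme overlapped another group.

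The enzymes that turn lanosterol into cholesterol rose as well, Msmo1 most. Msmo1, the sterol methyl oxidase, was at 62.4, 70.1 and 77.4 FPKM in the culture. It was at 6.61, 5.80 and 5.76 in control LKS-SLAM cells and 8.90, 12.3 and 4.90 in rEC LKS-SLAM cells, and the ratio to the control mean was 11.5. Cyp51, lanosterol demethylase, was at 47.4, 37.0 and 40.7 against 5.91, 5.99 and 5.21 (2.67 ± 0.18, adjusted p = 6.49e-10). Both enzymes thus separated the culture from every sorted library. Hsd17b7, a sterol ketoreductase, was at 11.6, 5.81 and 9.36 against 1.65, 1.48 and 1.03 (2.02 ± 0.20). Ebp, the sterol isomerase, was at 27.9, 42.1 and 42.5 against 13.3, 14.0 and 13.1 (1.39 ± 0.20). Smaller rises were found for Nsdhl, the demethylating dehydrogenase, at 20.4, 21.1 and 18.5 against 9.91, 7.81 and 6.63 (1.22 ± 0.21), and for Tm7sf2, a sterol reductase (1.19 ± 0.23). Dhcr7, which makes cholesterol in the final reduction, was at 24.6, 20.9 and 21.5 against 8.76, 10.7 and 9.40 (1.13 ± 0.20). Sc5d, sterol desaturase, was at 20, 21.9 and 22.6 against 10.4, 10.3 and 4.64 (1.32 ± 0.21), yet control myeloid cells were higher still, at 32.0 and 36.4. In all, 15 of the 18 synthesis genes had every culture library above all 26 other libraries; Pmvk, Mvd and Sc5d were the exceptions. Of all genes tested, 3.99% lay above all other libraries in this way and 3.52% below.

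The SREBP control genes gave a different picture. Insig1, an inhibitor of SREBP transport and itself a classical SREBP target, was at 54.3, 59.9 and 65.4 FPKM in the culture, at 17.7, 14.6 and 26.4 in control LKS-SLAM cells and at 27.6, 7.97 and 23.1 in rEC LKS-SLAM cells. The culture stood above all other libraries (1.61 ± 0.29 against control LKS-SLAM cells, adjusted p = 0.000134). Its paralogue Insig2 was at 5.28, 5.23 and 5.21 in the culture and 7.08, 7.47 and 5.83 in control LKS-SLAM cells, a difference of -0.31 ± 0.24 that did not pass. The ratio of Insig1 to Insig2 was accordingly 10.3 to 12.6 in the culture, and 0.953 to 4.52 in all other libraries. Srebf2, the SREBP that drives sterol genes, was at 113, 81.9 and 76.0 against 72.4, 73.0 and 83.9, and Srebf1, whose products also drive fatty acid genes, at 35.5, 36.1 and 37.6 against 30.3, 29.2 and 30.8. Their differences, 0.22 ± 0.26 and 0.27 ± 0.12 (adjusted p = 0.503 and 0.0736), did not pass. Nor did Scap, the sterol sensor (-0.18 ± 0.12), or Stard4, a soluble sterol carrier, at 28.6, 18.2 and 18.9 against 24.8, 22.2 and 16.0 (0.05 ± 0.22).

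Export genes were divided. Abcg1, which passes cholesterol to high-density lipoprotein, was at 0.411, 0.638 and 1.04 FPKM in the culture. It was at 8.85, 8.36 and 14.3 in control LKS-SLAM cells and at 13.5, 4.08 and 11.5 in rEC LKS-SLAM cells. The difference from control was -2.74 ± 0.27 (adjusted p = 1.38e-07), a 15.1-fold lower mean. Abca1, which loads lipid-poor apolipoprotein, was at 0.145, 0.825 and 0.401 in the culture against 3.50, 3.72 and 4.22 in control LKS-SLAM cells (-1.75 ± 0.32, adjusted p = 0.000143), an 8.34-fold lower mean. Each exporter was lower in every culture library than in any of the 26 others. Nr1h2, the broadly expressed LXR, was at 60.5, 64.2 and 62.0 against 143, 142 and 109 (-1.05 ± 0.23, adjusted p = 0.000904). Nr1h3, the LXR most tied to macrophages and liver, was low in both, at 0.553, 1.80 and 1.63 against 1.39, 1.39 and 0.635 (0.10 ± 0.23), and the groups overlapped. Npc1, which releases cholesterol from lysosomes, was at 20.8, 22.9 and 25.1 against 8.62, 9.22 and 11.7 and rose by 1.15 ± 0.15.

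**Figure D2:**
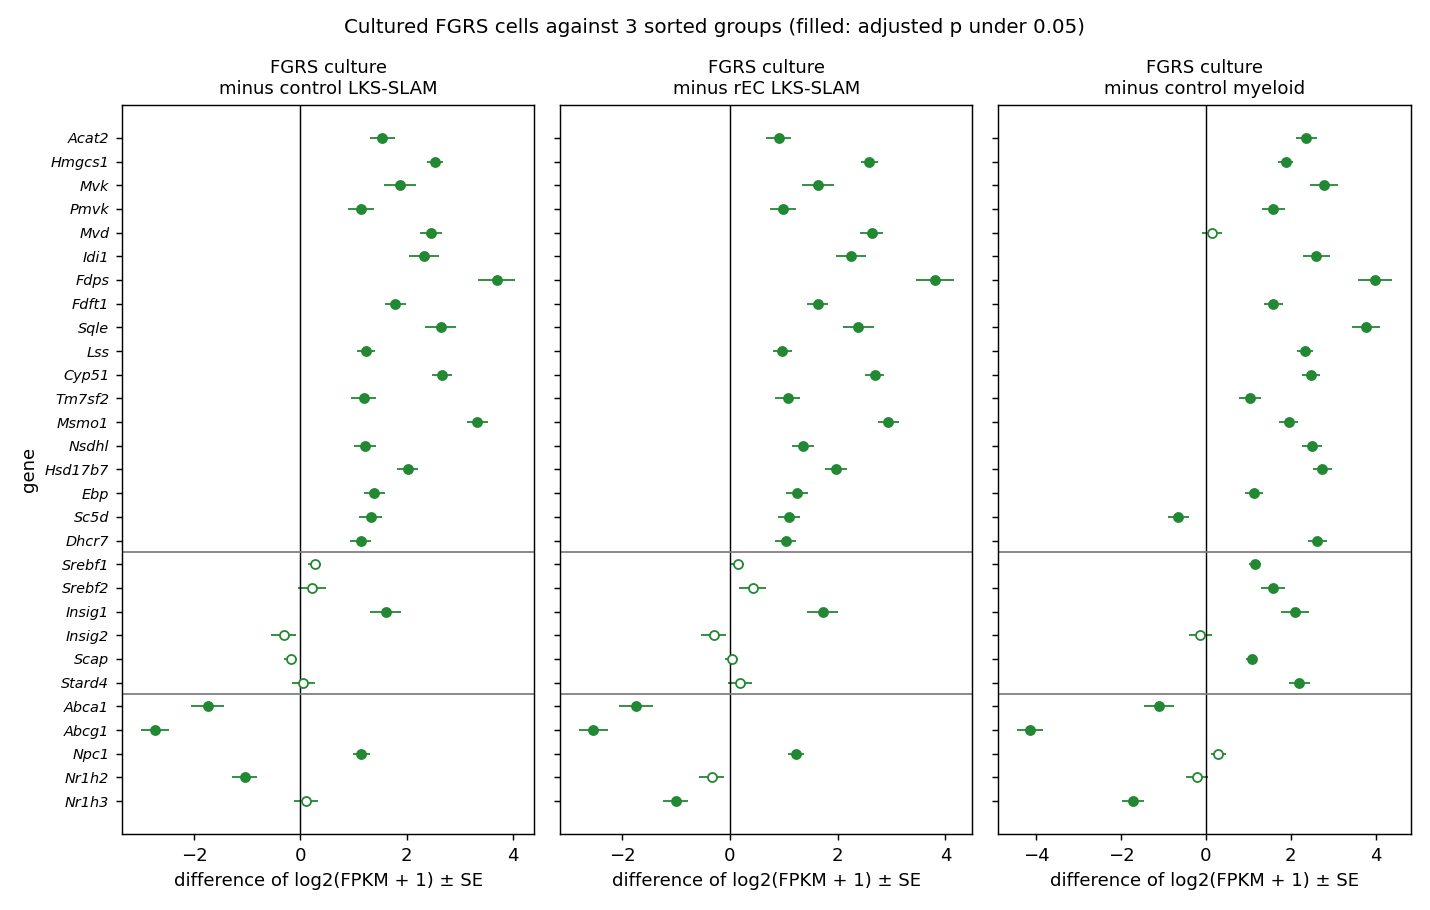
Points give the fitted difference of log2(FPKM + 1) with its SE for each of the 29 genes, FGRS culture minus control LKS-SLAM (left), rEC LKS-SLAM (middle) and control myeloid cells (right); filled points had an adjusted p under 0.05. All 18 synthesis points lie right of 0 in the left and middle panels, and Abca1 and Abcg1 lie left of 0 in all panels.

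Against rEC LKS-SLAM cells the same 18 enzymes, Insig1 and Npc1 were higher, and Abca1, Abcg1 and Nr1h3 lower. This comparison shares the culture libraries with the first, so it is no independent repeat. It called 17.2% of all genes tested higher and 27.8% lower, and 20 and 3 of the 29 members. The synthesis median was 1.64 (all genes -0.14), and Fdps again differed most (3.80 ± 0.35). Abcg1 fell by 2.53 ± 0.27 and Abca1 by 1.73 ± 0.32. Nr1h3, at 2.74, 4.57 and 3.44 in rEC LKS-SLAM cells, fell by 1.01 on the log2 scale (adjusted p = 0.00126), a call lost with quantile normalisation. Fitted on these 2 groups alone, where the rEC libraries vary widely, 14 of the 29 members passed in place of 23. All genes called fell to 538 higher and 362 lower, in place of 2419 and 3916. The members lost were Acat2, Mvk, Pmvk, Lss, Tm7sf2, Ebp, Dhcr7, Insig1 and Nr1h3.

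Against control myeloid blood cells, 16 synthesis genes were higher, Sc5d was lower and Mvd was not called. This comparison called 37.8% of all genes higher and 20.3% lower, and 21 and 4 of the 29 members; the median of all genes was 0.25. After quantile normalisation the members split 20 to 5, and all genes 4051 to 3970 in place of 5321 to 2860. Fdps (13.3 and 18.6 in control myeloid cells) differed by 3.99 ± 0.39, and Sqle (3.31 and 4.67) by 3.77 ± 0.32. Lower in myeloid cells than in the culture, by 2.34 (Lss) to 2.78 (Mvk), were Mvk (2.29 and 1.46), Hsd17b7 (0.421 and 0.447), Dhcr7 (2.63 and 2.90), Idi1 (9.66 and 8.86), Nsdhl (3.13 and 2.36), Cyp51 (6.21 and 7.07), Acat2 (2.06 and 2.30) and Lss (1.04 and 0.962). Sc5d differed by -0.64 ± 0.24 (adjusted p = 0.0233), lost without culture replicate 1 or without either myeloid library. Tm7sf2 (1.03 ± 0.26) was lost with quantile normalisation.

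Here 5 of 6 SREBP control genes also passed, all higher in the culture: Stard4 (2.196 ± 0.25), Insig1 (2.103 ± 0.32), Srebf2 (1.59 ± 0.29), Srebf1 (1.16 ± 0.14) and Scap (1.08 ± 0.14). Insig2 did not (-0.13 ± 0.27). Among export genes Abcg1, at 27.8 and 29.8 in myeloid cells, fell by 4.15 ± 0.30, the mean being 41.3-fold lower in the culture. Nr1h3 (6.31 and 6.53) fell by 1.72 ± 0.25 and Abca1 (2.01 and 2.166) by 1.11 ± 0.35, the latter call being lost without myeloid replicate 2. Npc1 and Nr1h2 did not pass.

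**Figure D3:**
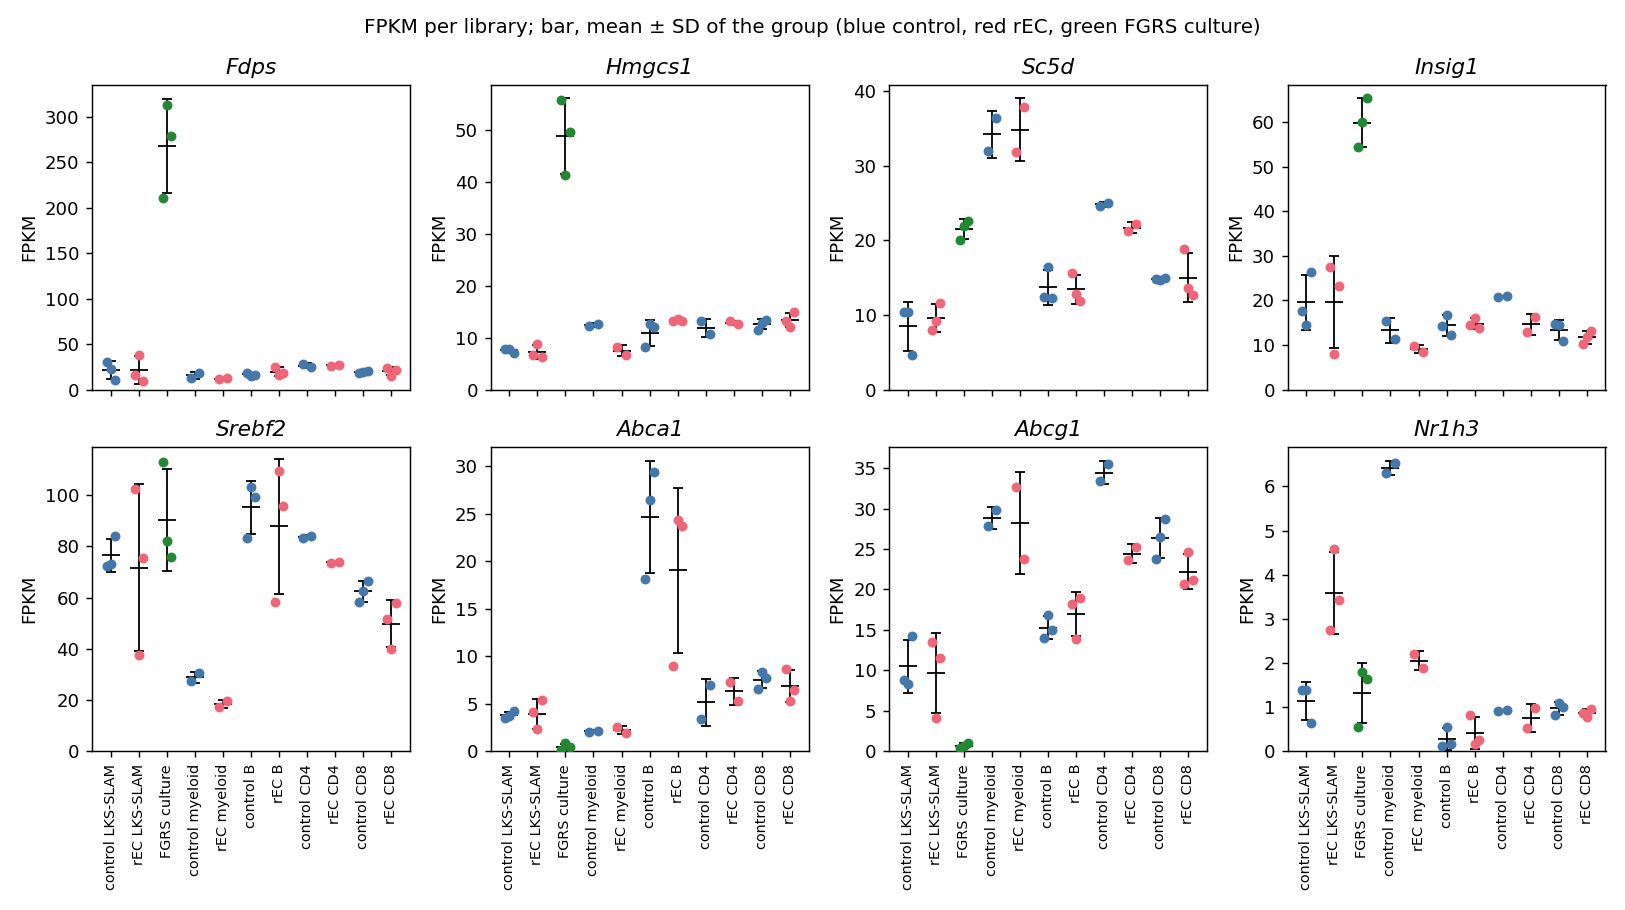
FPKM of 8 genes in each library, by group, with the group mean and SD (blue control, red rEC, green FGRS culture). Fdps, Hmgcs1 and Insig1 peak in the culture, Sc5d in myeloid cells, Abca1 in B cells (18.1 to 29.4 in controls) and Nr1h3 in control myeloid cells (6.31 and 6.53), while Abca1 and Abcg1 are lowest in the culture.

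Cell identity and division moved with these results. Counts in the marker lists are to be read against the 17.1% of all genes called higher and 31.7% called lower. Of 12 macrophage markers, 11 were higher in the culture than in control LKS-SLAM cells; their summed level was 233 to 1603 FPKM against 34.0 to 40.1, and none was at 0 in all 3 culture libraries. Of 12 stem cell markers 11 were lower, with Kit at 32.9, 12.3 and 11.6 against 116 to 133 FPKM. Of 10 endothelial markers 8 were lower, with a summed level of 92.35 to 154.8 FPKM against 287.3 to 397.8 in control LKS-SLAM cells. Cdh5 was low in both, at 0.215 to 0.610 FPKM in the culture and 0.421 to 2.16 in control LKS-SLAM cells. Pecam1 overlapped, at 41.03, 19.35 and 19.73 against 26.09, 20.35 and 34.85. Of 9 erythroid markers tested 8 were lower (median -4.73; summed level 65.7 to 151 FPKM against 716 to 1091), and of 8 eosinophil markers 6 were lower (median -4.85; 7.88 to 62.8 against 38.05 to 4910); 2 and 1 of these markers were at 0 in all culture libraries. Neutrophil markers had 1 of 10 higher and 3 lower, near the shares of all genes. Of 20 cell cycle genes 7 were higher and 0 lower (median 1.21). Against rEC LKS-SLAM cells 17 of these 20 were higher and 0 lower, where 17.2% of all genes were called higher and 27.8% lower. The part of any of these lists in the differences of the 29 genes was not tested. Bulk RNA cannot separate more cells of a type from more RNA per cell. Whether reads of the human feeder cells entered the mouse gene values was not tested.

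Replicate 2 of the rEC LKS-SLAM cells had the highest cell cycle mean of the 29 libraries, 6.85 on the log2 scale (culture 6.35 to 6.52), and a macrophage mean of 3.78, with Klf1, an erythroid regulator, at 201 FPKM. Its mean over the 18 synthesis genes was 3.57, the highest outside the culture, above the other LKS-SLAM libraries (2.77 to 3.14) and below the culture (4.88 to 5.09). Culture replicate 1 had the lowest macrophage mean of the culture, 3.59, near that of control myeloid cells (3.48 to 3.62). Its synthesis mean was 4.88, theirs 2.93 to 2.94. The similar macrophage means came from different markers: Adgre1 was at 6.67 FPKM in culture replicate 1 against 75.9 and 76.1 in control myeloid cells, and C1qb at 18.6 against 1.95 and 2.57. The part of cell cycle and macrophage genes in the synthesis difference was not tested.

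**Figure D4:**
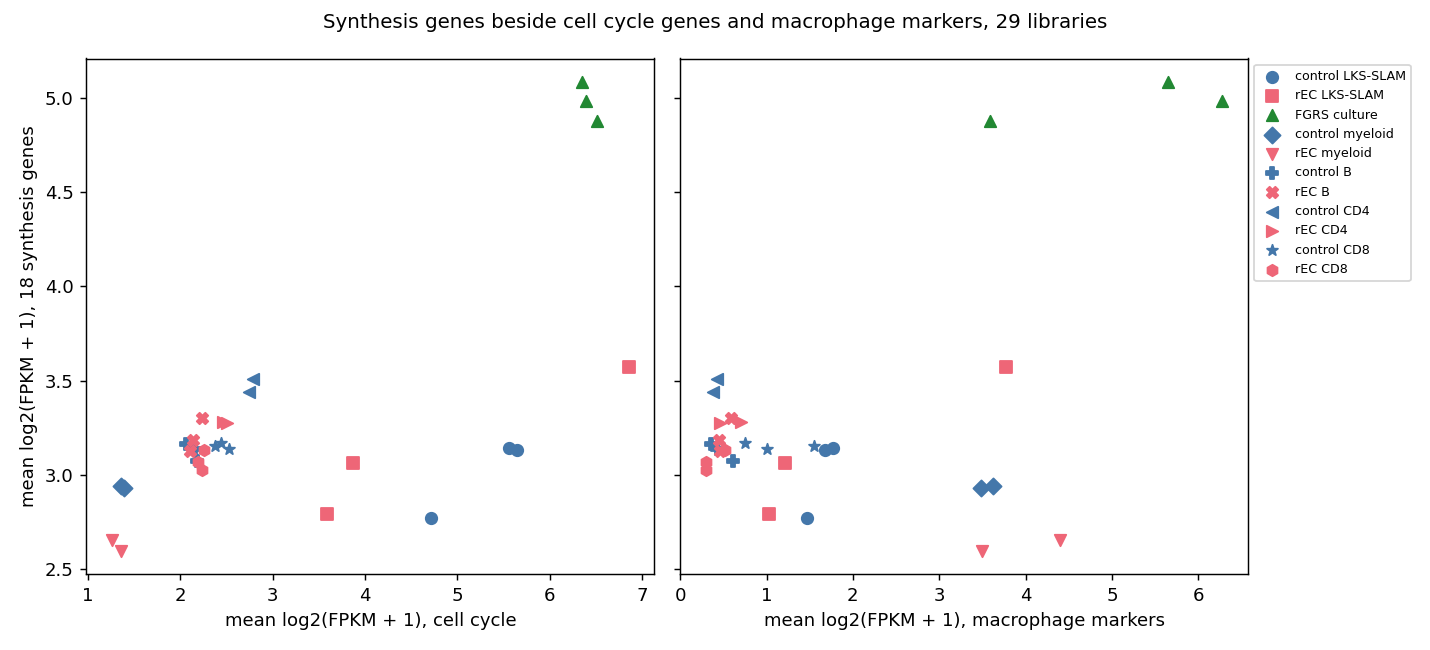
Each point is 1 of 29 libraries; the y axis is the mean log2(FPKM + 1) of the 18 synthesis genes, and the x axis that of 20 cell cycle genes (left) or 12 macrophage markers (right). The culture lies at 4.88 to 5.09 on the y axis, and all other libraries lie at 3.57 or less.

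Other lipid genes were compared with control LKS-SLAM cells in the same fit. They came from lists that were also chosen with earlier results of these data known. Their counts are to be read against the 17.1% of all genes called higher and 31.7% called lower, a median of -0.19; the difference between a list and all genes was not tested. Of 8 lipoprotein and scavenger receptors 5 were higher and 0 lower: Msr1, a macrophage scavenger receptor, rose by 3.23 ± 0.59, Lrp1 by 2.99 ± 0.40, and Scarb1, which takes cholesterol ester from high-density lipoprotein, by 1.93 ± 0.27 (from 24.4 ± 5.80 to 94.4 ± 6.90 FPKM, SD, n = 3 each). Of 12 genes of sterol storage, lysosome and transport 5 were higher and 4 lower. Lipa, the lysosomal acid lipase, rose by 2.11 ± 0.22, Soat1, which esterifies cholesterol, by 1.93 ± 0.35, and Nceh1, a cholesterol ester hydrolase, fell by 1.38 ± 0.46. Of 12 fatty acid synthesis genes 4 were higher and 2 lower (median 0.55): Acss2, acetyl-CoA synthetase, fell by 1.92 ± 0.33, Fasn rose by 0.87 ± 0.23 and Gpam fell by 0.86 ± 0.24. The synthesis median of 1.83 was larger than that of the fatty acid list. The difference between lists was not tested. Against control myeloid cells the split differed, with 2 of the 8 receptors higher and 3 lower. There 0 of 12 storage genes were higher and 5 lower, and 10 of 12 fatty acid genes were higher and 1 lower. In that comparison 37.8% of all genes were called higher and 20.3% lower.

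Of 9 further LXR targets 2 were higher and 2 lower, shares near those of all genes (17.1% and 31.7%). Lpl, lipoprotein lipase, rose by 3.90 ± 0.53 and Pltp, phospholipid transfer protein, by 3.46 ± 0.43, while Abcg4, a sterol transporter, fell by 2.32 ± 0.66 and Mylip, a ubiquitin ligase for lipoprotein receptors, by 1.58 ± 0.33 (10.3 ± 1.69 to 2.79 ± 0.66 FPKM). Lpl and Pltp are also macrophage genes and varied widely between culture libraries (SD 60.9 and 20.6 FPKM). Of 12 genes of SREBP processing and sterol-dependent degradation 1 was higher and 3 lower, against the same shares: Rnf145, a ligase of the sterol-sensing system and an LXR target, fell by 1.03 ± 0.16, Erlin1 rose by 0.80 ± 0.20 and Rnf139 fell by 0.36 ± 0.14. Of 12 genes of the isoprenoid branches 3 were higher and 0 lower: Nus1 (1.08 ± 0.16) and Dhdds (0.42 ± 0.17), the subunits of the enzyme that starts dolichol synthesis, and Pdss1 (1.02 ± 0.41), which builds the ubiquinone tail. Of 4 oxysterol enzymes tested, from 6 listed, 0 were higher and 2 lower, Cyp7b1 (-2.07 ± 0.36) and Hsd3b7 (-0.90 ± 0.28).

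Freshly isolated rEC and control cells were compared within 5 cell types. Few genes of any kind were called in the main fit, so a low count of members there says little about them. Between rEC and control LKS-SLAM cells 1 of 29 members was called, Nr1h3, against 0.071% of all genes called higher and 1.25% lower. Nr1h3 was at 2.74, 4.57 and 3.44 FPKM in rEC and 1.39, 1.39 and 0.635 in control cells, without overlap (1.10 ± 0.23, adjusted p = 0.0118). The call was lost with a pseudocount of 0.1 (adjusted p = 0.124) and in a fit of these groups alone (adjusted p = 1); over all alternatives the difference was 0.922 to 1.62. Without rEC replicate 2, which stands apart, it was 0.953 (adjusted p = 0.0138). In that refit 456 of all genes were called higher and 800 lower, and Nr1h3 was still the only member called. Neutrophil markers moved in the same comparison, 6 of 10 being lower in rEC cells (summed level 18.8 to 422 FPKM against 1266 to 1691), and 3 of 8 eosinophil markers were lower; their part in the result was not tested. At an unadjusted p under 0.05 were 3 of 29 members, the others being Acat2 and Nr1h2, against 9.41% of all genes. Without rEC replicate 1, Nr1h2 also passed, lower; without rEC replicate 3, Acat2 and Msmo1 passed as higher and Nr1h2 as lower.

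Between rEC and control myeloid cells 0 of 29 members passed, against 0.0639% of all genes called higher and 0.163% lower. At an unadjusted p under 0.05 were 7 members (24.1%, against 3.73% of all genes), all with lower values in rEC cells. Nr1h3 was at 2.199 and 1.90 in rEC against 6.31 and 6.53 in control cells (-1.29 ± 0.28, adjusted p = 0.0572). Cyp51 was at 3.10 and 2.93 against 6.21 and 7.07 (-0.93 ± 0.23, adjusted p = 0.117), and Idi1 at 3.58 and 3.99 against 9.66 and 8.86 (-1.10 ± 0.34, adjusted p = 0.513). The others were Hmgcs1, Fdft1, Sqle and Scap. Mvd and Sc5d did not follow them, at 31.2 and 39.8, and 31.8 and 37.8, against 31.8 and 28.3, and 32.0 and 36.4. Nr1h3 passed without the filter on low values, and Nr1h3, Cyp51 and Idi1 passed as lower when the rEC LKS-SLAM and rEC B libraries that stand apart were left out of the pooled spread. Neutrophil markers summed to 42930 to 86960 FPKM in rEC and 32400 to 36020 in control myeloid cells, and B cell markers to 7.40 to 9.05 and 20.3 to 48.5, with 0 of 10 called in either list; their part was not tested.

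In blood lymphocytes no member passed. In B cells 0% of all genes were called higher and 0% lower, and 0 of 29 members had an unadjusted p under 0.05 (2.83% of all genes). In CD4 cells 0.0142% of all genes were called higher and 0.0071% lower, and 1 member had an unadjusted p under 0.05 (Msmo1, -0.53 ± 0.24; 2.96% of all genes). In CD8 cells 0.142% were called higher and 0.987% lower, and 1 member had an unadjusted p under 0.05 (Nsdhl, -0.52 ± 0.21, adjusted p = 0.456; 7.46% of all genes). Abca1 in B cells was at 8.98, 24.4 and 23.7 in rEC and 18.1, 26.4 and 29.4 in control libraries; the low value was rEC B replicate 1, whose T cell markers summed to 1676 FPKM (control B cells 18.5 to 25.1). Outside the 29 genes, Scd1, a fatty acid desaturase (-3.07 ± 0.50), Cyp27a1, an oxysterol enzyme (-1.95 ± 0.42), and Lrp1 (-1.84 ± 0.40) were lower in rEC CD8 cells. B cell markers moved with these genes, 9 of 10 being lower in rEC CD8 cells, with a summed level of 19.0 to 78.0 FPKM against 254 to 583 in control CD8 cells. Macrophage markers, 1 of 12 called lower, summed to 6.90 to 8.33 FPKM against 19.8 to 66.8, and 2 of the 12 were at 0 in all rEC CD8 libraries. The part of either in these differences was not tested.

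A test of whether the origin difference varied among the 5 cell types called 0.277% of all genes and, of the 29, Nr1h3 (F = 11.4, adjusted p = 0.0197). Nr1h3 was higher in rEC LKS-SLAM cells and had lower values in rEC myeloid cells, while lymphocyte libraries ranged from 0.11 to 1.10 FPKM in both origins. The call was lost with a pseudocount of 0.1 and with quantile normalisation.

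**Figure D5:**
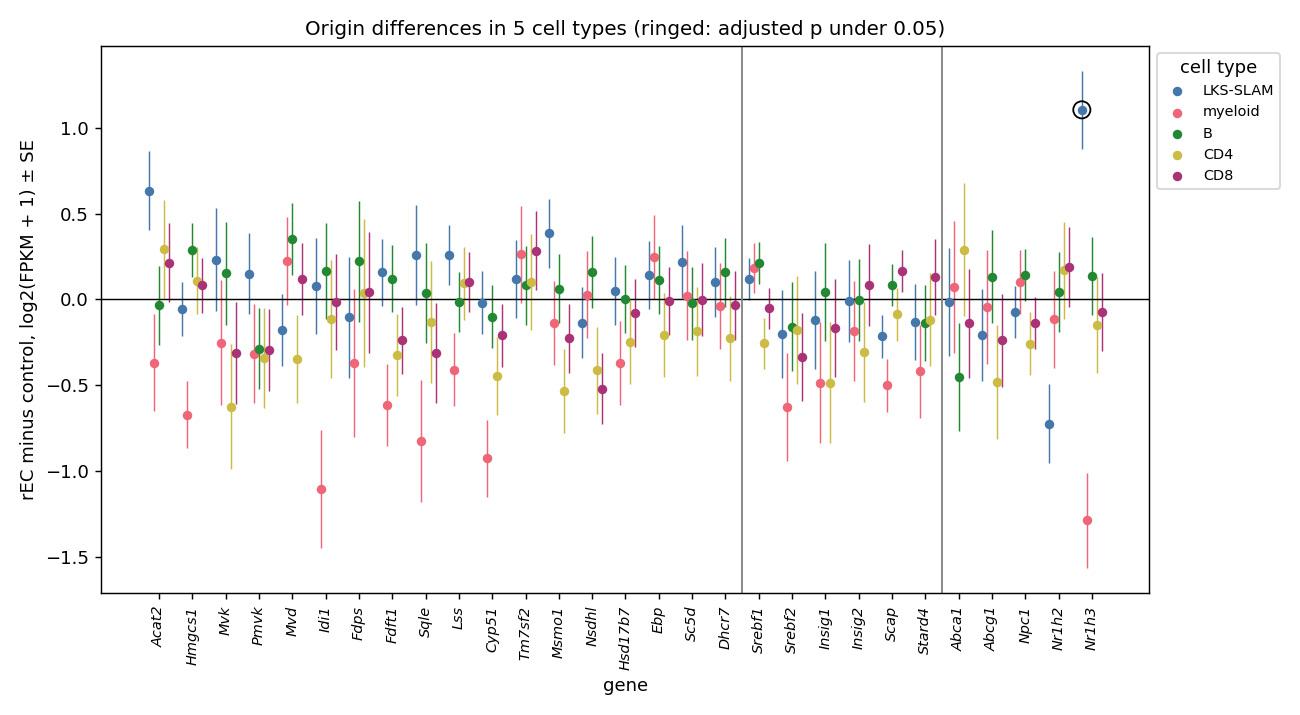
Fitted rEC minus control differences of log2(FPKM + 1) with SE for the 29 genes in 5 cell types; ringed points had an adjusted p under 0.05. Nr1h3 in LKS-SLAM cells, at 1.10, is the only ringed point.

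Native blood cells were each compared with control LKS-SLAM cells, and not with one another. These comparisons share the control LKS-SLAM libraries and depend on scaling, since the median of all genes was -0.61 in myeloid, -0.25 in B, -0.21 in CD4 and -0.21 in CD8 cells, and -0.03 to 0.08 after quantile normalisation. Myeloid cells had 7 members higher and 12 lower than LKS-SLAM cells, against 17.4% and 49.1% of all genes. B cells had 8 higher and 6 lower (18.9% and 36.7%), CD4 cells 9 and 2 (18.6% and 32%), and CD8 cells 9 and 5 (17% and 33.2%). After quantile normalisation the members split 12 to 5, 14 to 1, 18 to 2 and 15 to 2 in that order, and all genes 4110 to 4308, 4552 to 3584, 4101 to 3365 and 4194 to 3410, in place of 2453 to 6911, 2657 to 5175, 2614 to 4502 and 2390 to 4679. The genes described next kept their call under quantile normalisation unless stated.

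In myeloid cells 4 of 18 synthesis genes were higher and 7 lower, and 4 of 6 SREBP control genes were lower, against 49.1% of all genes. Mvd was at 31.8 and 28.3 FPKM (2.31 above LKS-SLAM cells), Sc5d at 32.0 and 36.4 (1.97), Msmo1 at 15.7 and 18.9 (1.37) and Hmgcs1 at 12.2 and 12.7 (0.65). Srebf2 was at 27.4 and 30.4 against 72.4, 73.0 and 83.9 (-1.37), Scap at 12.9 and 12.3 against 29.9, 31.6 and 33.4 (-1.26), Srebf1 at 15.9 and 15.5 (-0.89) and Stard4 at 3.81 and 4.0 against 24.8, 22.2 and 16.0 (-2.14). Insig1 (-0.50 ± 0.32) and Insig2 (-0.18 ± 0.27) did not pass. Abcg1 (1.41), Npc1 (0.85) and Nr1h3 (1.82) were higher and Nr1h2 lower (-0.84). Acat2, Mvk, Sqle, Lss, Nsdhl, Hsd17b7 and Dhcr7 were called lower as deposited and not after quantile normalisation.

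Stard4 was lower than in LKS-SLAM cells in each native blood type, by 1.66 in B (4.05, 6.95 and 6.97 FPKM), 1.09 in CD4 (9.46 and 8.85) and 1.52 in CD8 cells (5.83, 6.67 and 7.14). Mvd, Msmo1, Sc5d and Hmgcs1 were higher in each; in B cells the calls of Mvd, Sc5d and Hmgcs1, in CD4 cells that of Hmgcs1 and in CD8 cells that of Msmo1 each hung on single libraries. Abca1 was highest in B cells (18.1, 26.4 and 29.4 FPKM against 3.50, 3.72 and 4.22 in LKS-SLAM cells, 2.39 ± 0.32, adjusted p = 1.6e-06). Abcg1 was highest in CD4 cells, at 33.5 and 35.5 (1.66), and was at 23.8, 26.5 and 28.7 in CD8 cells (1.28), while control B cells, at 14.0, 16.9 and 15.04, did not pass. B cells thus held the most Abca1 and CD4 cells the most Abcg1 among native types; B was not tested against T cells. Insig2 was higher in B cells (12.60 to 13.03; 0.83), and Nr1h2 was lower in CD4 (-0.74) and CD8 cells (-0.79), the CD4 call being lost without any 1 of 4 libraries.

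Among themselves the synthesis genes did not all vary together outside the culture. Over the 11 group means, the correlation of each gene with the mean of the other 17 was 0.66 or more for 16 genes, 0.18 for Mvd and -0.01 for Sc5d. Without the culture, over 10 group means, it stayed at 0.89 for Fdps and Mvk. It was 0.55 to 0.77 for Acat2, Dhcr7, Lss, Hsd17b7, Nsdhl, Sqle and Cyp51. For Hmgcs1, Fdft1, Idi1, Ebp, Pmvk and Tm7sf2 it was 0.17 to 0.43. Negative values were -0.30 for Msmo1, -0.41 for Sc5d and -0.63 for Mvd. These are descriptions; group means share libraries' scaling, and the culture is 1 extreme point. Group means were highest in the culture for 16 of 18 synthesis genes and in rEC myeloid cells for Mvd and Sc5d, and lowest in rEC myeloid cells for 9 of 18 synthesis and 5 of 6 SREBP control genes. The shares of all genes with these extremes were not counted, so the counts are not read as particular to these genes. Control myeloid cells had low values at large, with a median over all genes of -0.605 against control LKS-SLAM cells. After quantile normalisation that median was -0.032.

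Genes outside the list whose group means followed the synthesis mean most closely were led by Atp6v1c1, a subunit of the vacuolar proton pump (r = 0.987 over 11 group means, 0.89 without the culture, culture mean 54.9 FPKM). Eaf1 (0.962; 0.71 without the culture), Med21 (0.962; 0.76), Spcs3 (0.959; 0.78), Osgin2 (0.954; 0.66), Ostc (0.952; 0.51), Manf (0.949; 0.63), Psmb3 (0.945; 0.66) and Srp19 (0.944; 0.81) came next. Spcs3, Ostc and Srp19 act in targeting, cleaving and glycosylating secretory proteins, and Manf in the endoplasmic reticulum; Psmb3 is a proteasome subunit and Med21 a subunit of Mediator. All these values were lower without the culture, which is 1 extreme point, and they are given as descriptions.

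Exons of some members overlap other genes in the mm10 annotation, and the libraries were not stranded, so reads may be shared. Fdft1 shares 774 bases with the opposite gene Ctsb, a lysosomal protease at 129 to 600 FPKM in the culture, 48.4 to 55.9 in control LKS-SLAM and 208 to 226 in control myeloid cells. Its value is uncertain, and the part of Ctsb in it was not tested. On its own strand Tm7sf2 shares 532 bases with Vps51, at 19.7 to 21.4 FPKM in the culture and 21.6 to 29.1 in control LKS-SLAM cells. Npc1 shares 511 with Rmc1, Hmgcs1 557 with Gm48342, Scap 985 with 5830462I19Rik, Lss 381 with 4930483K19Rik and Idi1 323 with Gm48574. Cyp51 shares 166 with Akap9, at 4.33 to 9.87 FPKM in the culture and 12.1 to 12.99 in control LKS-SLAM cells. Srebf1 shares 109 with Rai1, at 6.87 to 17.1 and 41.5 to 48.4. The part of these genes in the members' values was not tested. FPKM give no read numbers, so the depth behind each value is unknown. Libraries held 10165 to 12550 genes at 1 FPKM or more.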

How the data were processed

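RNA of 30 libraries was prepared by poly-A selection without strand and read on a HiSeq instrument, per the labels' protocols. The deposited values are FPKM made by the authors; the submitters' processing notes list TopHat2 2.1.0 and Cufflinks 2.2.1, a spliced aligner and an FPKM estimator, with Trimmomatic 0.36 and mm10, without order or settings. Depth is not given, so no counting interval is printed.

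Groups came from titles; 1 library of unclear origin entered no comparison. On the log2(FPKM + 1) scale, 1 mean per group was fitted over 29 libraries by limma (version 3.58.1, R 4.3.3), with 18 residual degrees of freedom, variances moderated along a trend in level, and two-sided tests of 14083 genes that reached 1 FPKM in 2 or more libraries. p-values were adjusted by Benjamini-Hochberg within each of 12 comparisons and an F test over 5 cell types, and called at 0.05. Alternatives were a pseudocount of 0.1, a filter of 5 FPKM or none, quantile normalisation, fits of the groups compared, a replicate block, and leaving out each library, or the 2 that stand apart (rEC LKS-SLAM replicate 2 and rEC B replicate 1). On simulated data with a floor at 0, false calls were more frequent than nominal for genes near 0 in some groups, which concerns Nr1h3, Abca1, Abcg1, Hsd17b7 and Lss.

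The members and lists were chosen with earlier results of these data known. Values per library were given for members called in comparisons of the culture or of origin, up to 12 per comparison by size; further members by range or fitted value. Up to 3 called genes per list, by size, and the 10 genes most alike with at least 5 FPKM on average were named; 1 gene that a rule names is not reported here. Hbb-bt, an erythroid marker, is not in the table used. No 2 libraries of a group held the same values (at most 0.006% of values identical). Positions are from GENCODE on mm10, and motifs were counted in RefSeq promoter windows.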

Additional observations from a re-analysis of the deposited data

Results flagged for a closer look

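The rEC minus control difference of Nr1h3 varied among the 5 cell types by a test of the difference itself (limma F test, adjusted p = 0.0197). Nr1h3 was at 2.74, 4.57 and 3.44 FPKM in rEC and 1.39, 1.39 and 0.635 in control LKS-SLAM cells, and at 2.199 and 1.90 in rEC and 6.31 and 6.53 in control myeloid cells.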

How the results depend on the processing

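Of refits of the culture's called differences under each alternative, 835 kept direction and call and 15 lost the call; for native cell types 587 kept it, 71 lost it and 8 turned direction. The cause of these changes was not tested. Fitted on the compared groups alone, 14 members (in place of 23) were called between the culture and rEC LKS-SLAM cells. All genes called fell to 538 higher and 362 lower, in place of 2419 and 3916. Between rEC and control LKS-SLAM cells such a fit called 0 members (in place of 1) and 0 genes of any kind. A pseudocount of 0.1 gave 0 members between rEC and control LKS-SLAM cells, with 10 of all genes higher and 160 lower. In the test among cell types it gave 0 (in place of 1), as did quantile normalisation in that test (0). Between rEC and control LKS-SLAM cells, leaving out 1 library at a time gave 1 to 4 members, with 2 without rEC replicate 1 and 4 without rEC replicate 3. All genes were then 61 higher and 358 lower, and 37 and 348, in place of 10 and 176. Between rEC and control myeloid cells 1 was called without a filter and 3 without both libraries that stand apart, in place of 0. All genes were then 38 higher and 55 lower, and 30 and 75, in place of 9 and 23.

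Against LKS-SLAM cells, CD4 cells had 20 members called with quantile normalisation and 17 without both libraries, in place of 11. All genes were then 4101 higher and 3365 lower, and 3280 and 5520, in place of 2614 and 4502. Leaving out 1 library at a time gave 7 (without control CD4 replicate 1) to 11 in CD4 cells, 9 (without control LKS-SLAM replicate 1) to 12 in B cells and 9 (without control LKS-SLAM replicate 2) to 14 in CD8 cells, in place of 14 for both. All genes in the fits named were 1916 higher and 3357 lower in CD4, 2470 and 4447 in B, and 2097 and 4011 in CD8 cells. Quantile normalisation turned some differences that had been called negative, and none of the turned values passed (limma, adjusted p from 0.257 to 0.975). In myeloid cells Acat2 became 0.378, Mvk 0.311, Lss 0.099 and Hsd17b7 0.309. In B cells Fdft1 became 0.262, Nsdhl 0.012 and Nr1h3 0.298, and in CD8 cells Cyp51 became 0.138. With a replicate block 23 members were called between the culture and control LKS-SLAM cells and 0 between rEC and control myeloid cells, as without it. Same-numbered libraries did not deviate together (r = -0.06, 0.065 and -0.089, and 0.075), so the numbers are not taken as pairs. Values under about 1 FPKM have the least precision, since FPKM give no counts.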

Other observations

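1 library carries the title of clonal 47G1 B220+ cells while its genotype reads wild type, and it was put in no group. Of the 29 genes, 22 were inside the range of the 3 control B libraries there, 5 above and 2 below. The share of all genes inside that range was not counted, so the library is not read as like or unlike control B cells. Abca1 and Abcg1 were inside that range. The values outside it were Mvk at 6.59 FPKM (control B 3.25 to 4.81), Dhcr7 at 9.04 (8.19 to 8.96), Srebf1 at 29.8 (24.2 to 25.9), Insig2 at 13.8 (12.60 to 13.03), Nr1h2 at 102 (86.6 to 100.4), Sqle at 4.10 (4.25 to 5.68) and Scap at 27.3 (27.4 to 30.1).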
